A study of Mus musculus with 6 samples.

Results

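The genes of translation initiation and elongation factors were described in CD4 T cells from the inflamed mouse colon. They were taken as every gene of the count table whose symbol starts with Eif or Eef followed by a digit, apart from 11 pseudogene symbols that contain -ps. That gave 70 genes of the 55335 in the table. In the study, naive splenic CD4 T cells of mice with a GFP reporter of Tcf7, the gene of the transcription factor TCF-1, were transferred into Rag1 knockout mice, which make no T or B cells of their own, and colitis developed. Donor CD4 T cells were then recovered from the colon lamina propria and sorted by GFP into 3 GFP-positive libraries, which the labels call TCF7+ and stem-like, and 3 GFP-negative libraries, which they call TCF7- and effector. The transferred cells, the Rag1 knockout host and the colitis were thus common to both groups, and the labels record neither the age of the mice, nor whether replicates came from different animals. The p-values below therefore measure only the spread between these libraries, part of which may be technical.

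Library totals ran from 4309500 to 7462076 counts, so that 3 counts, taken as the detection floor of a library, were worth 0.430 to 0.690 CPM (counts scaled to the library's total). Markers of T cell identity made up 0.624% of counts in GFP-positive replicate 3 and 0.792% to 0.878% in the other 5 libraries. The gated gene, Tcf7, gave 121, 141 and 71.3 CPM in the GFP-negative libraries (replicates 1 to 3, the order used throughout). The GFP-positive libraries gave 237, 183 and 141 CPM, all higher, although GFP-negative replicate 2 at 140.5 CPM almost met GFP-positive replicate 3 at 140.8 CPM. The log2 difference was 0.75 ± 0.26 (SE) and an adjusted p of 0.367 in edgeR. The library GFP-positive replicate 3 stood apart. Markers of myeloid, antigen-presenting, B, innate lymphoid, epithelial, stromal and red cells summed to 1.48% of its counts, against 0.0455% to 0.0846% in the other 5, and the myeloid list alone held 0.665% there. Ms4a1, Cdh5 and Vwf were at 0 in all 6 libraries. The part of these transcripts in the values of that library was not tested, and values without it are given beside the results that it changes in direction or by much.

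Translation of most mRNAs begins when the cap-binding complex eIF4F recruits a small ribosomal subunit that carries eIF3, eIF1, eIF1A and eIF2 with the initiator tRNA. The nucleotide exchange factor eIF2B reloads eIF2 with GTP, and the eIF2 kinases block that step under stress. During elongation, eEF1A delivers each aminoacyl-tRNA and eEF2 moves the ribosome on by a codon. T cells raise the rate of protein synthesis when they are activated, largely through mTORC1, which releases the cap-binding protein eIF4E from the 4E-binding proteins.

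Some of these genes carry short sequence features close to their start site, and those of some members are printed first. Promoter sequences, from 250 bases before to 50 bases after an annotated start, came from RefSeq on GRCm38.p6 and matched 54 of the 70 genes. Transcripts of elongation factors and ribosomal proteins are known for a 5' terminal run of pyrimidines, through which mTORC1 controls their translation. The windows below cover the 15 bases before the annotated start and the 25 bases from it, on the gene's own strand. Capitals mark a C followed by at least 5 pyrimidines. The start used in these cells may differ from the annotated one, so a marked run need not be transcribed.
Eef1a1, chr9:78481700-78481739, minus strand: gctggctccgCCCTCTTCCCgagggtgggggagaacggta
Eef2, chr10:81176616-81176655, plus strand: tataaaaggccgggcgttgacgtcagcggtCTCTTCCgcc
Eif3f, chr7:108934400-108934439, plus strand: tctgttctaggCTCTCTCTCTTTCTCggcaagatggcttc
Eif2s3x, chrX:94212627-94212666, minus strand: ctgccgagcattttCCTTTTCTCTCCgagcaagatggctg
Eif2s3y, chrY:1010580-1010619, plus strand: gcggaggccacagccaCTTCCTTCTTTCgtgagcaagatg
Eif2b2, chr12:85219466-85219505, plus strand: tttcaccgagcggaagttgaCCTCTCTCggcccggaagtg
Eif2b1, chr5:124579107-124579146, minus strand: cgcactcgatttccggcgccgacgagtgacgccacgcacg
Eif3b, chr5:140419290-140419329, plus strand: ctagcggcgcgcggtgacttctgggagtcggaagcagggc
The last 2 windows, of Eif2b1 and Eif3b, hold no such run. Counting runs that start within 20 bases of an annotated start, 18 of the 50 tested members with a promoter had one (36.0%), against 36.3% of the 8350 tested genes with a promoter. The share of such runs among the members was thus close to that of tested genes in general. A run counted this way need not lie at the 5' end of the annotated transcript, and in Eef2 it began at base 16 of that transcript. Which base the RNA of these cells starts from was not tested. The count is therefore not one of 5' terminal runs.

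The second feature was CACGTG, the E-box hexamer, which reads the same on both strands and which the MYC and MAX transcription factors are known to bind. It is shown with 12 bases on each side, in capitals, for members of the cap-binding complex, eIF3, eIF5A and eEF2.
Eif4e, chr3:138527192-138527221, plus strand: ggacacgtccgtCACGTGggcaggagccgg
Eif4g1, chr16:20672661-20672690, plus strand: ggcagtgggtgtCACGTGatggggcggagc
Eif4a1, chr11:69672595-69672624, minus strand: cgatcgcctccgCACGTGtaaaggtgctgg
Eif3f, chr7:108934335-108934364, plus strand: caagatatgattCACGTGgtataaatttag
Eif3k, chr7:28981915-28981944, minus strand: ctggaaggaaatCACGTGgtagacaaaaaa
Eif5a, chr11:69921443-69921472, minus strand: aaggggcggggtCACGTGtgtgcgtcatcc
Eif5a2, chr3:28781123-28781152, plus strand: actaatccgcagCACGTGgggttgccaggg
Eef2, chr10:81176576-81176605, plus strand: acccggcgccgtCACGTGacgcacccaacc
CACGTG stood in a promoter of 14 of the 54 matched members (25.9%), against 8.09% of the 27025 genes with a promoter. Among tested genes the shares were 12 of 50 members (24.0%) and 12.1% of 8350 genes, which is a description without a test. A match is a sequence in this window and does not show that a factor bound there.

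The levels of the factors spanned several orders of magnitude. Levels of different genes were compared in TPM, transcript shares that allow for gene length. Eef1a1, which encodes the factor that delivers aminoacyl-tRNAs, averaged 6663 TPM over the 6 libraries and made up 38.7% of the summed TPM of all members. It was followed by Eif1, a factor of start codon selection, at 1642 TPM, by Eif5a, which helps ribosomes over difficult peptide bonds, at 1095 TPM, and by Eef2, the translocase, at 1046 TPM. These 4 were the members with a mean of at least 1000 TPM, and 26 members reached 100 TPM. The eIF3 subunits spread from 23.1 TPM for Eif3j1 to 705 TPM for Eif3h among those tested, although most of their proteins act in a single complex. The eIF2B subunits lay between 10.8 TPM for Eif2b3 and 94.9 TPM for Eif2b2, and the eIF2 kinases between 1.80 TPM for Eif2ak4 and 35.5 TPM for Eif2ak1. The genes together held 1.59%, 1.68% and 1.87% of the TPM of GFP-negative cells and 1.62%, 1.93% and 1.63% of that of GFP-positive cells, ranges that overlapped.

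**Figure D1:**
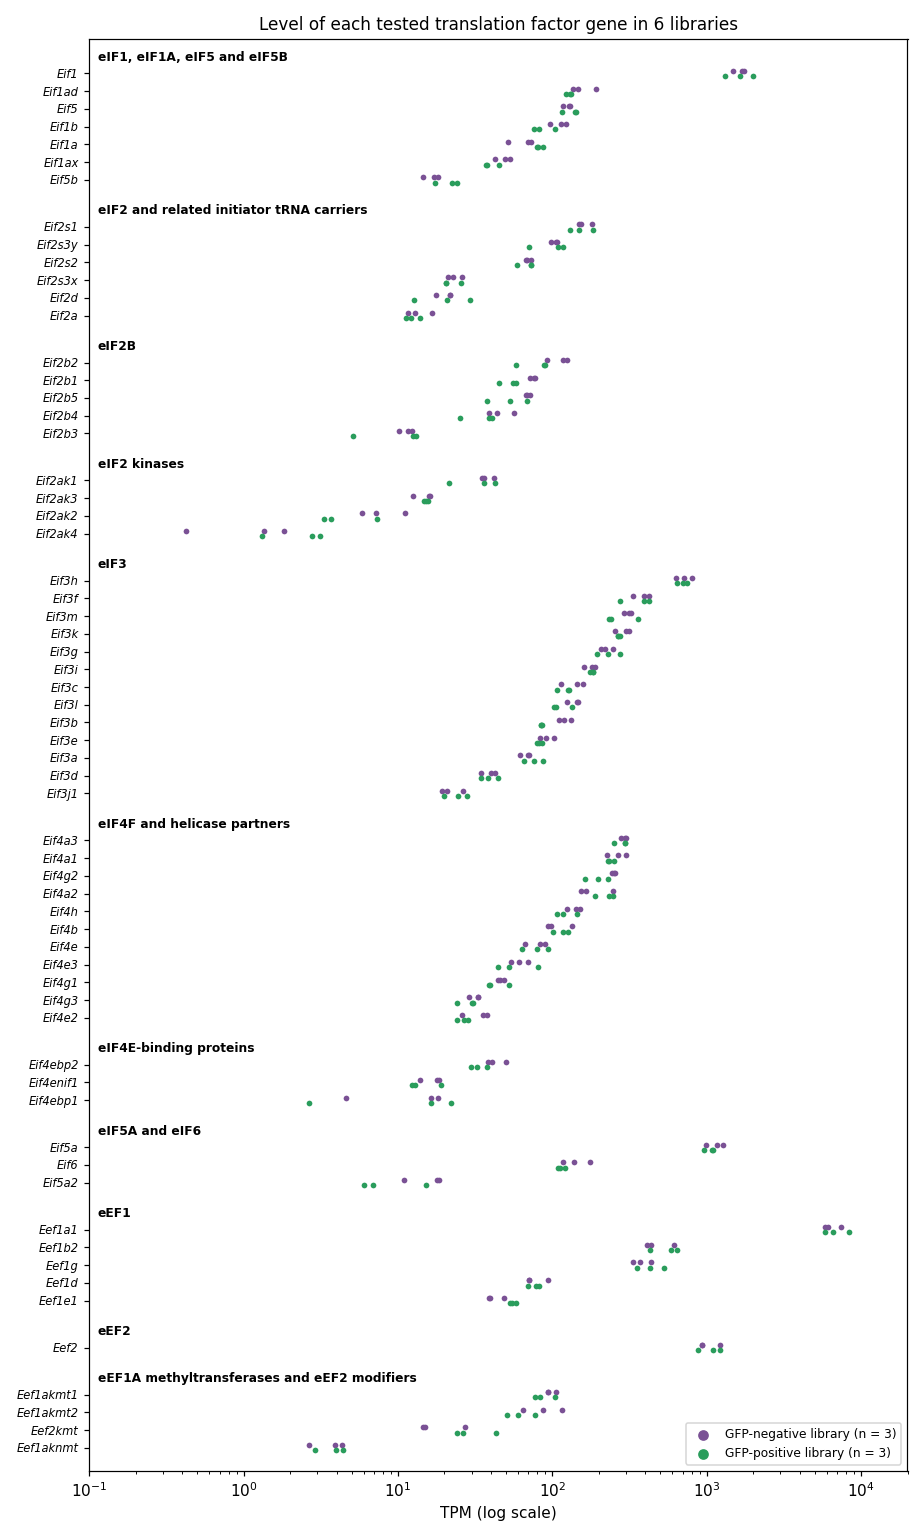
Level of each tested member in each library, in TPM on a log axis, by functional group. Points are single libraries, coloured by GFP group. Eef1a1 averaged 6663 TPM and Eif2ak4 1.80 TPM, and the 6 points of a gene lie close together beside the span between genes.

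Of the 70 members, 8 were too low for the test. Eef1a2, the eEF1A form of muscle and neurons, Eif4e1b, an eIF4E form known from oocytes, Eif4ebp3 and Eif2c5 had 0 counts in all 6 libraries, each of which allows up to 3 counts. Eif2c5 was taken by its symbol alone: it is annotated as a long noncoding RNA and was given no role among the factors. Eif3j2 had 1 to 4 counts per library. Eef1akmt4 had 3, 5 and 7 counts in the GFP-negative libraries and 3, 7 and 37 in the GFP-positive ones, the last in the library with the myeloid transcripts. Eef2k, the kinase that inhibits eEF2, had 10, 3 and 0 counts against 0, 0 and 25, again highest in that library. Eef1akmt3 had 4 counts in GFP-positive replicate 1 and 0 elsewhere.

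None of the 62 tested members differed between GFP-positive and GFP-negative cells at an adjusted p below 0.05 in the quasi-likelihood test of edgeR, where 12 of 11074 genes were called (0.108%), 4 higher (0.0361%) and 8 lower (0.0722%) in GFP-positive cells. DESeq2 called 200 genes (1.81%) and limma-voom 5 (0.0452%), and no member was among them. The lowest adjusted p of a member was 0.327. At an unadjusted p below 0.05, 7 members stood out (11.3% of those tested), against 10.3% of all tested genes. Of these 4 were higher, where the share of all genes was 4.31%, and 3 lower, where it was 5.97%. The libraries of the groups did not overlap for 10 members (16.1%), against 16.0% of all genes, with 5 higher (7.25% of all genes) and 5 lower (8.80%). With all libraries, both shares were thus close to those of the transcriptome. Without GFP-positive replicate 3, 3 members (4.84%) had an unadjusted p below 0.05 in edgeR, against 12.3% of all tested genes. In this bulk RNA, fewer cells expressing a gene and less of its RNA per cell cannot be told apart.

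The intervals of the differences were narrow for most members. The log2 difference, GFP-positive minus GFP-negative, had a median of -0.01 over the members and 0.02 over all tested genes, and 29 members had a positive and 33 a negative value, while 51.6% of all genes had a positive one. Without GFP-positive replicate 3, 12 of the 62 members changed sign. With all libraries, the size was below 0.25 for 41 members and at least 0.5 for 4 (6.45%), against 26.1% of all genes. The 95% interval lay within a 2-fold change in either direction for 56 members (90.3%), against 51.5% of all genes. The members were also more abundant, with a median of 118 CPM against 28.7 CPM. Among genes of at least 50 CPM, the interval lay within 2-fold for all 46 members and for 91.3% of 3770 genes. In that range the median size of the log2 difference was 0.13 for members and 0.17 for all genes, and none of the 46 members and 9.26% of the genes reached 0.5.

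**Figure D2:**
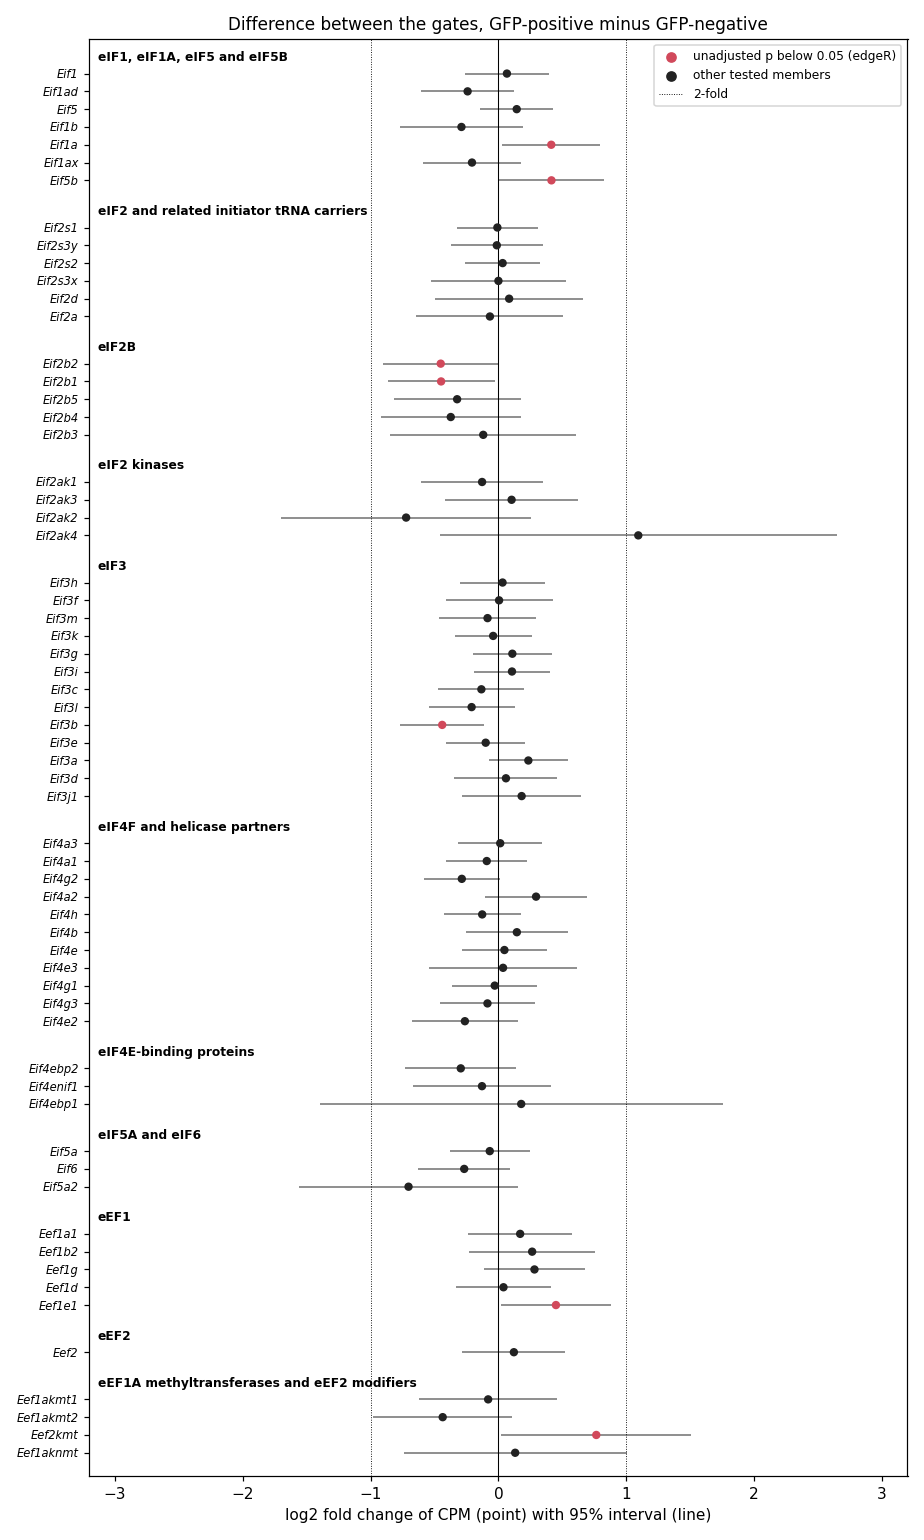
The log2 difference between GFP-positive and GFP-negative cells for each tested member, with its 95% interval from edgeR, by functional group. Positive values are higher in GFP-positive cells, red points mark an unadjusted p below 0.05 and dotted lines a 2-fold change. All 5 eIF2B subunits lay below 0 and all 5 tested eEF1 members above it, and no member was called.

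Among the factors of start codon recognition, 4 of 7 tested genes had positive and 3 negative log2 differences, with a median of 0.07. Eif1a, a gene of eIF1A, which holds the decoding site open during scanning, stood at 104.5, 72.1 and 101.5 CPM in GFP-negative cells. It stood at 110.1, 128.3 and 132.1 CPM in GFP-positive cells. The groups did not overlap, and the log2 difference was 0.41 ± 0.18 (SE, n = 3 against 3; edgeR adjusted p = 0.450). Eif5b, the GTPase that joins the ribosomal subunits, had 48.8, 55.7 and 61.8 CPM in GFP-negative cells and 78.5, 77.0 and 66.4 CPM in GFP-positive cells. Its groups did not overlap either, and its log2 difference was 0.41 ± 0.19 (SE; edgeR adjusted p = 0.482). Eif5b shares up to 419 exonic bases with Rev1 on the opposite strand, and the libraries do not record strand, so reads from those bases cannot be assigned to either gene. Eif1, the most abundant of these genes, had 1264, 1183 and 1081 CPM in GFP-negative and 1397, 1229 and 1067 CPM in GFP-positive cells, with overlap. Eif1ad, whose product has a domain like that of eIF1A, had 132, 136 and 188 against 123, 122 and 142 CPM, also with overlap, and shares up to 428 exonic bases with Banf1 on the opposite strand.

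The 6 genes of eIF2, which carries the initiator tRNA, and of related proteins had log2 differences between -0.07 and 0.08, 2 of them positive. Without GFP-positive replicate 3 they lay between -0.04 and 0.32, with 5 positive, and Eif2d, highest of them, went from 0.08 to 0.32. Eif2s1, the alpha subunit that the stress kinases phosphorylate, had 254, 255 and 313 CPM in GFP-negative cells and 303, 262 and 252 CPM in GFP-positive cells. Eif2s2, the beta subunit, ranged from 155 to 175 CPM over all 6 libraries, with a log2 difference of 0.03 and a 95% interval from -0.26 to 0.32. The gamma subunit is encoded on both sex chromosomes in mice. Eif2s3y, the Y-linked gene, averaged 101 TPM and Eif2s3x, the X-linked one, 22.7 TPM. The ratio of Eif2s3y to Eif2s3x in TPM was 4.72, 4.08 and 4.65 in GFP-negative cells and 5.30, 4.59 and 3.49 in GFP-positive cells, so the Y-linked gene led in every library and the groups overlapped. No 100-base window of the transcripts was shared between these genes, whereas 33.7% of the windows of Eif2s3x were shared with Gm2223, which had 0 to 5 counts per library. Eif2a and Eif2d encode other proteins that can bring tRNA to the ribosome and are not subunits of eIF2. Eif2a had 24.4, 26.2 and 35.5 against 24.9, 30.3 and 27.0 CPM, and Eif2d 44.8, 53.4 and 56.1 against 50.9, 76.8 and 36.3 CPM, both with overlap.

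The 5 subunits of eIF2B, the exchange factor of eIF2, all had negative log2 differences, with a median of -0.37 and none called. Eif2b1, the alpha subunit that senses phosphorylated eIF2, stood at 68.2, 62.1 and 69.9 CPM in GFP-negative cells and at 48.0, 53.6 and 45.3 CPM in GFP-positive cells. The groups did not overlap, with a log2 difference of -0.45 ± 0.19 (SE, n = 3 against 3; edgeR adjusted p = 0.450). Eif2b2, the beta subunit, had 60.7, 78.2 and 77.0 CPM against 56.1, 58.9 and 43.0 CPM, again without overlap, at -0.45 ± 0.21 (SE; edgeR adjusted p = 0.482). Eif2b5, the catalytic epsilon subunit, had 61.8, 62.3 and 61.6 CPM in GFP-negative and 59.4, 34.7 and 54.1 CPM in GFP-positive cells. Its libraries did not overlap, although GFP-positive replicate 1 lay close to the GFP-negative libraries, and its log2 difference was -0.32 ± 0.23 (SE; edgeR adjusted p = 0.695). Eif2b4, the delta subunit, had 35.1, 38.2 and 51.1 against 35.0, 35.6 and 25.5 CPM, with overlap. Eif2b3, the gamma subunit, had 27.9, 25.2 and 23.2 against 27.4, 30.3 and 12.9 CPM and was lowest in GFP-positive replicate 3. The summed level of the 5 genes was 254, 266 and 283 CPM in GFP-negative cells and 226, 213 and 181 CPM in GFP-positive cells, which did not overlap. Without GFP-positive replicate 3, the library with the myeloid transcripts, 4 of the 5 log2 differences were negative. Eif2b3 was then at 0.19, and the median was -0.31. None of the 5 then had an unadjusted p below 0.05 in edgeR, where 2 had with all libraries.

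Among the eIF2 kinases, 2 log2 differences were positive and 2 negative, and 3 were positive and 1 negative without GFP-positive replicate 3. Eif2ak4, which encodes GCN2, the sensor of uncharged tRNA, was the lowest tested member per length, at 3.49, 4.55 and 1.10 CPM in GFP-negative cells and 3.29, 8.28 and 8.03 CPM in GFP-positive cells. Its log2 difference was 1.09 with a 95% interval from -0.46 to 2.65, the widest of any tested member apart from Eif4ebp1. Eif2ak2, which encodes PKR, the sensor of double-stranded RNA, had 12.8, 10.01 and 19.7 against 12.5, 6.67 and 6.60 CPM. Eif2ak1, which encodes HRI, had 68.2, 68.7 and 82.7 against 80.9, 73.1 and 47.2 CPM. It was lowest in GFP-positive replicate 3, its log2 difference was -0.13 with that library and 0.09 without it, and up to 487 of its exonic bases overlap Aimp2 on the opposite strand. Eif2ak3, which encodes PERK of the endoplasmic reticulum, ranged from 26.3 to 35.4 CPM over all libraries. The groups of all 4 kinases overlapped.

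Of the 13 tested eIF3 genes, 7 had positive and 6 negative log2 differences, with a median of 0.01. Eif3b, a scaffold subunit that contacts the small ribosomal subunit, had the lowest p of all members. It stood at 127, 133 and 155 CPM in GFP-negative cells and at 95.3, 100.2 and 110.2 CPM in GFP-positive cells. The groups did not overlap, and the log2 difference was -0.44 ± 0.15 (SE, n = 3 against 3; unadjusted p = 0.0128, adjusted p = 0.327, edgeR). Without GFP-positive replicate 3 it was -0.49. Eif3a, the largest scaffold subunit and a partner of Eif3b in the same complex, had its libraries the other way round without overlap, with 187, 204 and 217 CPM in GFP-negative and 223, 271 and 221.6 CPM in GFP-positive cells. Its log2 difference of 0.23 ± 0.14 (SE; edgeR adjusted p = 0.640) had a 95% interval from -0.08 to 0.54. Eif3h, the most abundant subunit per length, had 353, 382 and 451 against 346, 427 and 440 CPM, and Eif3l had 158, 177 and 183 against 125, 172 and 151 CPM, both with overlap. Without GFP-positive replicate 3, 5 of the 13 log2 differences were positive and 8 negative, and that of Eif3h went from 0.03 to -0.02.

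In the cap-binding complex and its helicases, the log2 differences of the 11 tested genes lay between -0.29 and 0.29. Eif4e, the cap-binding protein, had 172, 179 and 141 CPM in GFP-negative cells and 189, 171 and 149 CPM in GFP-positive cells, and its log2 difference of 0.05 had a 95% interval from -0.29 to 0.38. The form Eif4e2, which binds caps but is known mainly for repression, had 67.1, 95.05 and 93.2 against 70.7, 63.9 and 78.0 CPM. Eif4e3 had 53.1, 58.2 and 47.6 against 43.8, 39.5 and 79.2 CPM. Its highest value was in GFP-positive replicate 3, which held the myeloid transcripts, and its log2 difference was 0.04 with that library and -0.33 without it.

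Eif4g2, an eIF4G relative without the eIF4E site that acts in translation independent of the cap-binding protein, stood at 855, 861 and 886 CPM in GFP-negative cells and at 779, 714 and 642 CPM in GFP-positive cells. The GFP-negative libraries lay close together and all above the GFP-positive ones, at a log2 difference of -0.29 ± 0.14 (SE, n = 3 against 3; edgeR adjusted p = 0.513). The helicase genes Eif4a1 and Eif4a2 encode closely related proteins. Eif4a1 had 341, 384 and 453 against 361, 352 and 394 CPM. Eif4a2 had 457, 296 and 287 against 413, 467 and 395 CPM, with GFP-negative replicate 1 at the level of the GFP-positive libraries. Its log2 difference was 0.29 ± 0.18 (SE; edgeR adjusted p = 0.648), and 0.55 without GFP-negative replicate 1. Up to 186 exonic bases of Eif4a2 overlap Rfc4 on the opposite strand, and 22.6% of the 100-base windows of Eif4a1 occur in other genes. Eif4a3, a helicase of the exon junction complex rather than of eIF4F, ranged from 178 to 243 CPM over all libraries. Without GFP-positive replicate 3 its log2 difference went from 0.01 to -0.07, and 3 of the 11 genes were positive in place of 5.

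The 4E-binding proteins hold eIF4E in check when mTORC1 is inactive. Eif4ebp2 was the most abundant of them, with 100.4, 73.7 and 82.7 CPM in GFP-negative cells and 57.5, 67.1 and 84.6 CPM in GFP-positive cells. Eif4ebp1 had 13.8, 12.1 and 3.51 CPM against 11.9, 2.07 and 18.9 CPM, a spread within each group that left an interval from -1.40 to 1.76 on the log2 scale. Its log2 difference was 0.18, and -0.45 without GFP-positive replicate 3, its highest library. That of Eif4ebp2 was -0.29, and -0.45 without the same library. Eif4enif1, which encodes a transporter of eIF4E, had 30.4, 38.2 and 41.0 against 40.5, 29.0 and 30.7 CPM. All 3 genes overlapped between the groups.

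The eIF5A genes and Eif6, which encodes a factor that keeps the large subunit from joining too early, had negative log2 differences with overlapping groups. Eif5a had 812, 925 and 1064 CPM in GFP-negative cells and 866, 918 and 887.8 CPM in GFP-positive cells, and a log2 difference of -0.07 ± 0.15 (SE; edgeR adjusted p = 0.918). Its relative Eif5a2 was far lower, with 32.0, 18.4 and 31.6 CPM against 10.04, 27.1 and 13.5 CPM. GFP-positive replicate 2 lay within the GFP-negative range, and the log2 difference of -0.70 ± 0.39 (SE; edgeR adjusted p = 0.605) became -1.21 without it. Eif6 had 109, 159 and 130 against 109, 107 and 114 CPM.

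All 5 tested eEF1 members had positive log2 differences, with a median of 0.26 and none called. The median lay between 0.14 and 0.45 when a library was left out, and without GFP-positive replicate 3 it was 0.16 with 4 of the 5 positive. Eef1a1 stood at 5030, 5066 and 6424 CPM in GFP-negative cells and at 4838, 7352 and 6396 CPM in GFP-positive cells. The groups overlapped, since GFP-positive replicate 1 was the lowest of all 6 libraries and GFP-negative replicate 3 was level with GFP-positive replicate 3. Its log2 difference was 0.17 ± 0.19 (SE, n = 3 against 3; edgeR adjusted p = 0.818), and 16.3% of its 100-base windows occur in other genes. For Eef1g that share was 32.4%. Eef1b2, an exchange factor subunit that reloads eEF1A, had 383, 344 and 542 against 361, 528 and 635 CPM, at a log2 difference of 0.26, and of 0.08 without GFP-positive replicate 3. Eef1g, the structural subunit of that exchange complex, had 299, 322 and 394 against 309, 489 and 436 CPM. In all 3 genes, GFP-positive replicate 1 lay below GFP-negative replicate 3, and the highest library was GFP-positive replicate 2 or 3.

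Eef2 had GFP-positive replicate 1 below GFP-negative replicate 3 as well, with 1073, 1039 and 1412 CPM in GFP-negative cells and 968, 1432 and 1433 CPM in GFP-positive cells, and a log2 difference of 0.12 ± 0.19 (SE; edgeR adjusted p = 0.878), or 0.04 without GFP-positive replicate 3. The summed level of 80 ribosomal protein genes was 55720, 52409 and 67143 CPM in GFP-negative cells and 53660, 83369 and 85458 CPM in GFP-positive cells. In GFP-negative cells, replicate 3 had both the highest Eef1a1 and the highest ribosomal sum. In GFP-positive cells, Eef1a1 was highest in replicate 2 and the ribosomal sum in replicate 3, and both were lowest in replicate 1. Eef1e1 was the eEF1 member without overlap. It encodes a scaffold of the aminoacyl-tRNA synthetase complex in spite of its symbol, and had 44.6, 53.0 and 44.1 CPM against 59.2, 67.1 and 67.1 CPM without overlap. Its log2 difference was 0.45 ± 0.20 (SE; edgeR adjusted p = 0.460).

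**Figure D3:**
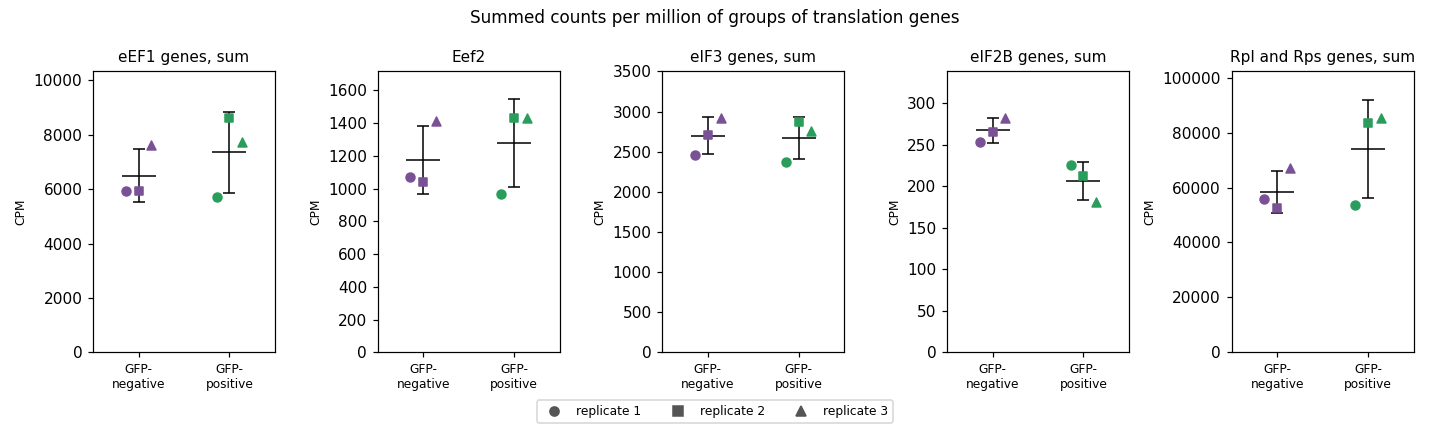
Summed level per library, in CPM, of eEF1, Eef2, eIF3, eIF2B and the ribosomal protein genes. Points are the 3 libraries of each GFP group, horizontal lines their means and whiskers 1 SD. The eIF2B sums were 254 to 283 CPM in GFP-negative and 181 to 226 CPM in GFP-positive cells, and the sums of eEF1 and of the ribosomal proteins overlapped.

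Of the enzymes that modify elongation factors, Eef2kmt, which methylates a lysine of eEF2, stood at 13.4, 13.4 and 25.4 CPM in GFP-negative cells and at 38.4, 25.1 and 25.2 CPM in GFP-positive cells. GFP-negative replicate 3 overlapped the GFP-positive libraries. The log2 difference was 0.77 ± 0.34 (SE, n = 3 against 3; edgeR adjusted p = 0.470), and 1.15 without that library. Eef2kmt shares up to 472 exonic bases with Alg1 on the opposite strand, so reads from those bases are uncertain. Eef1akmt2, an eEF1A methyltransferase, had 39.35, 67.8 and 53.5 against 45.2, 32.0 and 41.3 CPM, with overlap. Eef1akmt1 ranged from 24.4 to 35.2 CPM over all libraries, and Eef1aknmt from 8.99 to 16.8 CPM, with a log2 difference of 0.13, and of -0.06 without GFP-positive replicate 3.

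**Figure D4:**
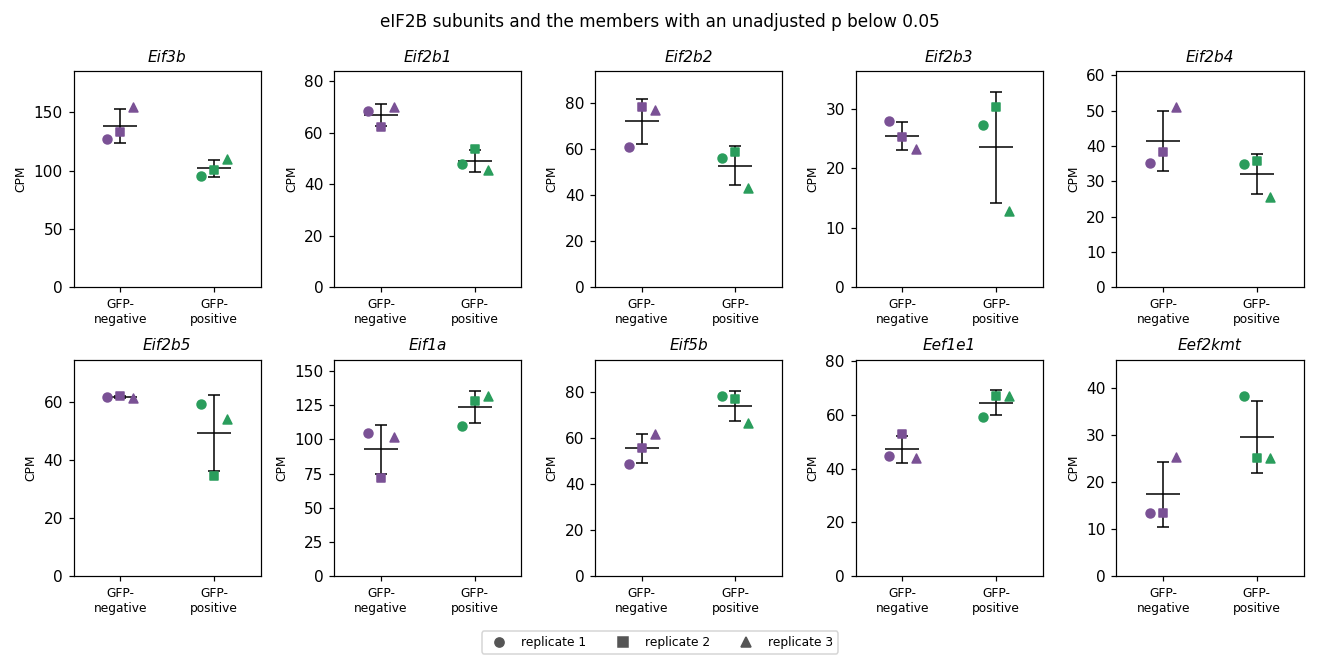
Level in each library, in CPM, of the 5 eIF2B subunits and the other members whose unadjusted p was below 0.05. Points are single libraries, horizontal lines the group means and whiskers 1 SD. In Eif3b, Eif2b1, Eif2b2, Eif1a, Eif5b and Eef1e1 the groups did not overlap, and in Eef2kmt they did.

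Ratios between related genes within a library do not depend on the scaling of that library. Of 10 such ratios in TPM, 3 did not overlap between the groups, where 16.0% of single genes did not overlap in CPM and no share over other gene pairs was computed. With 3 libraries against 3 an exact two-sided permutation test cannot give a p below 0.1. Eif1 over Eif1b was 15.3, 13.8 and 15.4 in GFP-negative cells and 19.2, 20.2 and 17.3 in GFP-positive cells. Eif1a over Eif1ax, the other eIF1A gene, was 1.69, 0.97 and 1.41 against 2.12, 1.91 and 2.16. Eif4g2 over Eif4g1 was 5.48, 5.57 and 5.12 against 4.40, 5.08 and 4.10. By contrast, Eif4a2 over Eif4a1 was 1.09, 0.62 and 0.51 against 0.93, 1.08 and 0.81, and Eef1a1 over Eef2 stayed between 5.95 and 6.84 in all libraries.

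The other genes of the translation pathway were read from lists beside the members, and none of their genes was called in edgeR, DESeq2 or limma-voom. Of 20 tested initiation partners without an Eif symbol, such as the poly(A)-binding protein Pabpc1, 14 log2 differences were positive and 6 negative, with a median of 0.08 and 1 unadjusted p below 0.05, that of Abcf3 at 0.79 ± 0.32 (SE; edgeR adjusted p = 0.415). Of 12 genes of hypusine, diphthamide and selenocysteine synthesis, which serve eIF5A, eEF2 and the decoding of selenocysteine, 9 were positive, with a median of 0.36 and 1 unadjusted p below 0.05. That gene, Dph1 of diphthamide synthesis, was at 0.70 ± 0.29 (SE; edgeR adjusted p = 0.427). Of 19 genes of mTORC1, S6 kinase and MNK control, 15 were positive, with a median of 0.19 and no unadjusted p below 0.05. Genes higher without overlap numbered 1, 5 and 1 in these lists, in the order given, where the share of all tested genes was 7.25%. Those lower without overlap numbered 0, 0 and 1, where it was 8.80%.

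Of 13 tested genes of the integrated stress response, the programme that follows phosphorylation of eIF2, 9 were positive and 4 negative, with a median of 0.32 and 1 unadjusted p below 0.05 in each direction. Ppp1r15a, which encodes a subunit of the eIF2 phosphatase, was at 0.42 ± 0.16 (SE; edgeR adjusted p = 0.382), and Phgdh, the first enzyme of serine synthesis, at -0.65 ± 0.18 (SE; edgeR adjusted p = 0.211). Of 22 cytosolic aminoacyl-tRNA synthetases, 4 were positive and 18 negative, with a median of -0.13, and Farsb was at -0.41 (edgeR adjusted p = 0.460). The 10 mitochondrial factors had a median of -0.01, with Tufm, the mitochondrial elongation factor Tu, at -0.49 (edgeR adjusted p = 0.450). The 8 tested termination and recycling factors were split evenly, 4 in each direction, with no unadjusted p below 0.05.

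Cell cycle genes were read beside the members, and their summed level was 1499, 2670 and 3497 CPM in GFP-negative cells and 1065, 1469 and 1369 CPM in GFP-positive cells. GFP-negative replicate 1 and GFP-positive replicate 2 almost met, and 8 of the 24 genes were lower without overlap, against 8.80% of all tested genes. All 24 had negative log2 differences, with a median of -1.09. In edgeR 17 had an unadjusted p below 0.05, where 5.97% of all tested genes were lower at that level. EdgeR called 0, limma-voom 0 and DESeq2 10 of the 24, against 0.108%, 0.0452% and 1.81% of all tested genes. The part of the cell cycle genes in the values of the members was not tested. Myc, which encodes the E-box factor named above, stood at 80.2, 83.2 and 96.0 CPM in GFP-negative cells and at 109.8, 124.4 and 127.2 CPM in GFP-positive cells. The groups did not overlap, and the log2 difference was 0.48 ± 0.16 (SE, n = 3 against 3; edgeR adjusted p = 0.294). The tested members with CACGTG had 5 positive and 7 negative log2 differences with a median of -0.03, and those with a promoter but without CACGTG had 17 positive and 21 negative ones with a median of -0.01. The 18 members with a pyrimidine run starting within 20 bases of the annotated start had a median of -0.02. The 32 with a promoter but without such a run had a median of -0.04. This split does not compare genes with and without a 5' terminal run.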

How the data were processed

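Bulk RNA was measured in 3 GFP-positive and 3 GFP-negative libraries, grouped by their titles. Per the labels' protocols, cDNA was primed with oligo-dT and random hexamers, amplified and tagged with a transposase kit, which records neither strand nor molecule, so floors cover counting error only. The authors deposited raw counts per gene and TPM. The tools listed per the submitters' processing notes, on mm10, are deepTools 3.5.1, SAMtools 1.17, STAR 2.7.10b and fastp 0.23.3. Which counter and annotation made the counts is not given in the sources used here. Gene positions and overlaps came from GENCODE M21, which 69 of the 70 member identifiers matched with their version.

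The members, role groups and gene lists were chosen with earlier results of these data known. The deposited counts were tested in edgeR 4.0.16 under R 4.3.3 (quasi-likelihood F-test), with TMM factors, robust dispersions, a filter with a minimum count of 10, and Benjamini-Hochberg adjustment over the 11074 genes tested. CPM used TMM-scaled totals, SE came from the fold change and F, and levels of different genes used the deposited TPM. In data simulated for this comparison over 10710 genes, edgeR recovered 30 of 89 true 2-fold changes and 90 of 111 true 4-fold changes, and 9 of its 129 calls were unchanged genes. Genes were named by rule: any called member, in each role group up to 3 members with the smallest p and the one with the highest TPM, every member with an unadjusted p below 0.05 or with groups that did not overlap and a log2 difference of at least 0.5, and whole families of paralogs, and from the other lists up to 3 genes with the smallest p. Eif2b3, Eif2b5, Eif1b, Eif1ax, Eif4g1 and Myc were added after their values were seen. Also outside the rule, Eif3j1 was named as the end of a range, Eif3f and Eif3k for their sequences, and the remaining untested members as a list. Alternatives were RLE factors, library size alone, other filters, DESeq2 1.42.0, limma-voom (limma 3.58.1), limma on log2(TPM + 1) and log2(TPM + 0.1), the replicate number as a block, and each library left out. No libraries were near-identical in their counts.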

Additional observations from a re-analysis of the deposited data

How the results depend on the processing

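No member was called under any of the 16 alternatives to the edgeR fit, and the lowest adjusted p of a member lay between 0.223 and 0.605. Over all genes, 12 calls became 19 with library size alone, 373 with no filter, 200 in DESeq2, 5 in limma-voom, and 1, 0 and 0 in limma on log2(TPM + 1), log2(TPM + 0.1) and log2(TPM + 1) without a filter. Leaving out a library gave 0 to 50, namely 0 when GFP-positive replicate 1 was omitted, 3 when GFP-positive replicate 2 was, 5 when GFP-negative replicate 2 was and 50 when GFP-positive replicate 3 was. Replicate numbers were shared between groups, but same-numbered libraries correlated at only 0.104, 0.0971 and 0.104 in their deviations. Each GFP-negative library correlated best with its own number. Deviations from a group mean depend on each other within the group, so these correlations cannot show whether same-numbered libraries were paired. With the replicate number as a block, 81 genes were called and no member.

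The 4 members higher at an unadjusted p below 0.05 became 2 with library size alone, 2 with no filter, 0 on log2(TPM + 1), 0 on log2(TPM + 0.1), 1 on log2(TPM + 1) without a filter, and 1 to 4 with a library left out. The 3 lower ones became 2 with RLE factors, 2 with library size alone, 4 with no filter, 5 in limma-voom and 0 to 4 with a library left out. The members' median of -0.01 was -0.10 in each of the TPM fits and between -0.05 and 0.01 with a library left out. All 7 members with an unadjusted p below 0.05 kept their sign in 16 of 16 alternatives, and Eif3b kept its unadjusted p below 0.05 in 15, Eif2b1 in 12, Eif1a in 10, Eef2kmt in 10, Eif2b2 in 8, Eef1e1 in 8 and Eif5b in 5. The eIF2B median stayed between -0.45 and -0.31, and the eEF1 median between 0.14 and 0.45, although all eEF1 members were positive in only 10. The cause of these shifts was not tested. With 3 libraries a group, 2-fold changes were often missed in simulated data. The changed genes there were drawn from tested genes in general, so that rate is not one for the members, which were more abundant. The intervals of Eif2ak4 and Eif4ebp1 were the widest among the members, while 56 of the 62 tested members had an edgeR 95% interval within 2-fold.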
